A study of Mus musculus with 7 samples.

Results

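PU.1 binding sites that were among the strongest in mature osteoclasts (OCs) but carried no peak of MITF are described here. They were chosen from the ChIP-Seq peak list of PU.1 in OCs as the peaks on chromosomes 1 to 19 and X with a score equal to 63 tags or more that overlapped, by 1 bp or more, no peak of any of the 3 MITF lists. This gave 2756 sites of 7882 strong peaks and of 77072 PU.1 OC peaks in all. The other 5126 strong peaks overlapped an MITF peak and served as the comparison. Tags are the sequenced fragments in a peak, and the score is their number scaled to a common library size. Because the PU.1 OC score and the MITF lists chose the sites, both are given below as descriptions only.

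Bone marrow was flushed from C57BLACK6 mice 4 to 6 weeks old, and its cells were grown for 3 days in 50 ng per mL CSF1 to give myeloid precursors (MPs). RANKL at 100 ng per mL was then added for 36 h or for 72 h, and the 72 h cells are the OCs. At each of these stages chromatin was precipitated with 5 µg of a PU.1 or an MITF antibody made in the laboratory of the study, and IgG was used as a control in MPs. Each of these 7 conditions had 1 library, and the number of animals behind a library is not given in the sources used here. All tests below are therefore over peaks of single libraries and cover counting error only, with no biological spread.

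PU.1 is an ETS family factor that recognizes a GGAA core and is needed to form the macrophage lineage from which OCs arise. MITF belongs to the helix-loop-helix leucine zipper proteins, has the E-box as its recognition site and works with PU.1 at genes of the OC. RANKL is the cytokine that turns MPs into multinucleated bone-resorbing OCs.

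The peaks at Slc2a1, Fkbp1b, Ncf4 and Fli1 are printed as examples of strong PU.1 sites without an MITF peak, and those at Jazf1 and Siglecg as strong sites with one in every MITF list. The sequences are the plus strand of mm9, and capitals mark the PU.1 core GAGGAA, the E-box (CACGTG or CATGTG) and the composite ETS-IRF element GGAANNGAA, each on either strand.
Slc2a1, without MITF, chr4:118799938-118800088: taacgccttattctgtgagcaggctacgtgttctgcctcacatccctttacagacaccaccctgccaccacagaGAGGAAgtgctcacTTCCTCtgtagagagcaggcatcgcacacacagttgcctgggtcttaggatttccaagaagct
Fkbp1b, without MITF, chr12:4846915-4847065: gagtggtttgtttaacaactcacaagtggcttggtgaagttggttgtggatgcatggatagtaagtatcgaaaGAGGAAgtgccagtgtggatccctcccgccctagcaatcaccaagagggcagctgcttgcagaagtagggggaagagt
Ncf4, without MITF, chr15:78075153-78075303: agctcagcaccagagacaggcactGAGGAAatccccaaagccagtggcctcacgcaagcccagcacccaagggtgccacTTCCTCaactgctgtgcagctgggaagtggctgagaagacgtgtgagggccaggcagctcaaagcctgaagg
Fli1, without MITF, chr9:32308545-32308695: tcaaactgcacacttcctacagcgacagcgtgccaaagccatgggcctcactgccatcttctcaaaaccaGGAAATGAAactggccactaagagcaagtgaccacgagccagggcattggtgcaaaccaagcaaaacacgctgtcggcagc
Jazf1, with MITF, chr6:52792693-52792843: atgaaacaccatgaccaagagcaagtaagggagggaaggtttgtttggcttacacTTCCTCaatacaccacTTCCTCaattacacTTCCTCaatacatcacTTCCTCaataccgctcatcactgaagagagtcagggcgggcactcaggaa
Siglecg, with MITF, chr7:50647860-50648010: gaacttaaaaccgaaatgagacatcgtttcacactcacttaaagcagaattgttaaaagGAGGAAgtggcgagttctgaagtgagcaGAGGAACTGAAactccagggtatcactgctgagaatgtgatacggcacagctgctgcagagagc
In these 151 bases the Slc2a1 and Ncf4 sites held 2 PU.1 cores each, the Fkbp1b site held 1 and the Fli1 site held 1 ETS-IRF element. The Jazf1 site held 4 PU.1 cores, and the Siglecg site held 2 PU.1 cores and 1 ETS-IRF element. None of the 6 sequences held an E-box.

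The sites without an MITF peak lay in the lower part of the strong range. Their PU.1 OC scores reached 298.1 with a median of 110.1, and those of the sites with an MITF peak reached 356.8 with a median of 142.4. When the strong peaks were split by score into 5 strata, 60.4% of those with scores up to 102.8 had no MITF peak, and this share was 50.3%, 36.4% and 20.4% in the next 3 strata. Among the 1541 peaks with scores of 173.3 or more, 84 had none (5.45%, 95% Wilson interval 4.42 to 6.70). Members at the limit, such as the sites near Usf1, Gm5069 and Atf3, had 63 tags. Peaks just under it without MITF, such as those near Myadm, Mtpap and Klf6, had 62 tags.

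How far the word "without" reaches is set by the depth of the MITF lists. The lowest peaks of these lists held 9 tags in MPs, 10 at 36 h and 8 in OCs, and a weaker MITF signal could not appear in them. On strong PU.1 peaks of the lowest score stratum, MITF peaks had medians of 10, 12 and 9 tags in MPs, 36 h cells and OCs, and 53.4%, 43.8% and 56.8% of them were within 1 tag of the lowest of their list. In the highest stratum these medians were 19, 39.5 and 16 tags. MITF peaks on the weakest of the strong PU.1 sites thus sat close to the lowest listed signal.

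**Figure D1:**
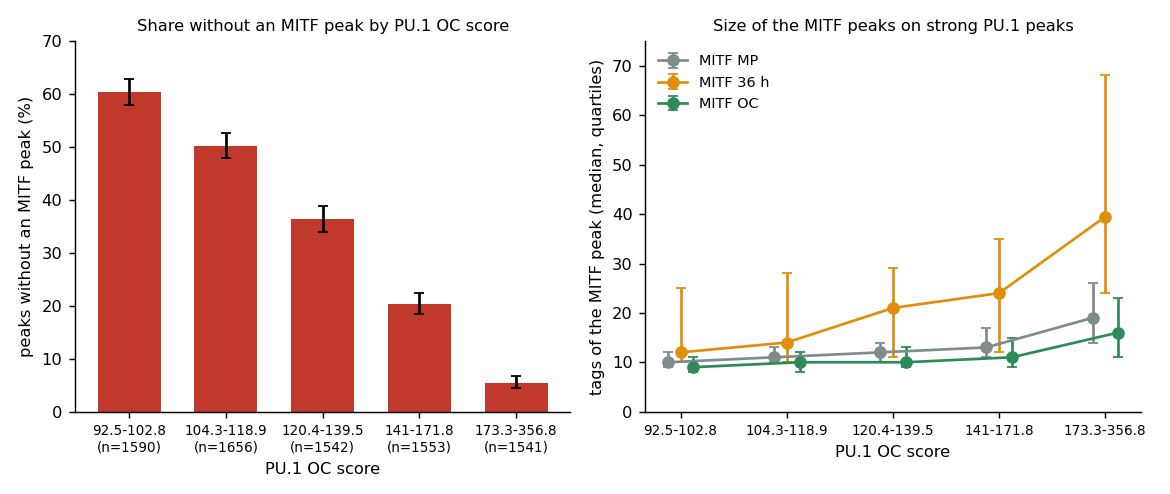
Left, percent of strong PU.1 peaks without an MITF peak in 5 ranges of PU.1 OC score, with 95% Wilson intervals and the number of peaks in each range. Right, tags of the MITF peaks on strong PU.1 peaks, as median and quartiles in each MITF library. The share without an MITF peak went from 60.4% to 5.45% from the lowest to the highest range, while the median MITF peak went from 9 to 12 tags up to 16 to 39.5 tags.

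The MITF lists themselves were examined because the label rests on them. Of their peaks on chromosomes 1 to 19 and X, 1.48% in MPs, 4.74% at 36 h and 6.04% in OCs overlapped no PU.1 peak of any library. An E-box stood within 100 bp of the center in 17.0% of the MITF MP peaks, 15.3% of the MITF 36 h peaks and 15.4% of the MITF OC peaks. The same window around all PU.1 OC peaks held one in 17.2%, and the PU.1 core was found in 69.9%, 71.4% and 70.1% of the MITF peaks against 58.7% of all PU.1 OC peaks. The E-box of MITF was therefore no more frequent in the MITF lists than in the PU.1 OC list, and "without MITF" means here only that no MITF peak was listed. At the 5126 strong PU.1 sites chosen for their overlap with an MITF peak, the center of the nearest MITF peak was a median of 7 bp from the PU.1 center.

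Most of the selected sites were also far from the next MITF peak. The distance to the nearest MITF center had a median of 27783.5 bp. An MITF center lay within 500 bp of 55 sites, within 1 kb of 131 and within 10 kb of 797 (28.9%). The closest cases were sites near 5830432E09Rik, Tns3 and Ifnar1, at 154, 161 and 167 bp. No selected site overlapped an IgG peak (0 of 2756, which allows a share of up to 0.139% by the Wilson interval), and 2 of the 5126 sites with an MITF peak did. The IgG list held only 349 peaks, all from MPs. The share of all PU.1 OC peaks that overlapped one was not computed, so these counts have no background to be set against.

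PU.1 was already present at nearly all of these sites before RANKL. An MP peak overlapped 2736 of the 2756 sites (99.3%) and a 36 h peak 2721 (98.7%), against 99.7% and 99.5% of the sites with an MITF peak. Of all 76993 PU.1 OC peaks on these chromosomes, weak ones included, 60040 overlapped an MP peak and 57958 a 36 h peak. Near-complete overlap was thus shared by strong peaks with and without an MITF peak. Both were present at 2711 sites, and 10 sites had neither. Each of the 20 sites without an overlapping MP peak lay 152 to 423 bp from one, and 32 of the 35 without a 36 h peak had one within 500 bp. Of the 20 sites without an MP peak, 14 also had an MITF center within 500 bp. The site assigned to the microRNA gene Mir146 on chromosome 11 (OC score 154.2) and the Grk5 intron site (138.0) had neither PU.1 peak, with MITF centers 287 and 394 bp away. Of the 10 highest sites named below only Sfi1, a centrosomal protein gene, lacked a 36 h peak, with scores of 220.0 in MPs and 239.4 in OCs.

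PU.1 scores in MPs and at 36 h were lower at these sites than at the sites with an MITF peak, and so were the tags at equal OC tags. Median scores were 114.3 in MPs, 97.6 at 36 h and 110.1 in OCs, against 156.9, 133.0 and 142.4 at sites with an MITF peak. The score limit of the selection was reached in all 3 PU.1 libraries by 49.1% of the sites without and 81.7% of those with an MITF peak. Within sets of strong peaks of the same OC tag number, MP tags were above the median of the set at 42.5% of sites without and 51.3% of sites with an MITF peak (Mantel-Haenszel odds ratio 0.640, 95% interval 0.577 to 0.710, Cochran-Mantel-Haenszel chi-square test, Benjamini-Hochberg adjusted p = 1.99e-16 over 22 shares). For 36 h tags the shares were 41.1% and 51.7% (odds ratio 0.591, 0.532 to 0.656, chi-square adjusted p = 7.44e-22). These 2 shares were added after the scores had been seen. Peaks were matched on the OC tags that the rule also used, and the groups differed in OC score. A change with time therefore cannot be told apart here from a difference in overall PU.1 strength. The 2 tests cannot decide between these, and their values are given as descriptions. With the MITF OC list alone defining MITF, the MP odds ratio was 0.928 (chi-square adjusted p = 0.225) and the 36 h odds ratio 0.687 (chi-square adjusted p = 8.08e-12).

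**Figure D2:**
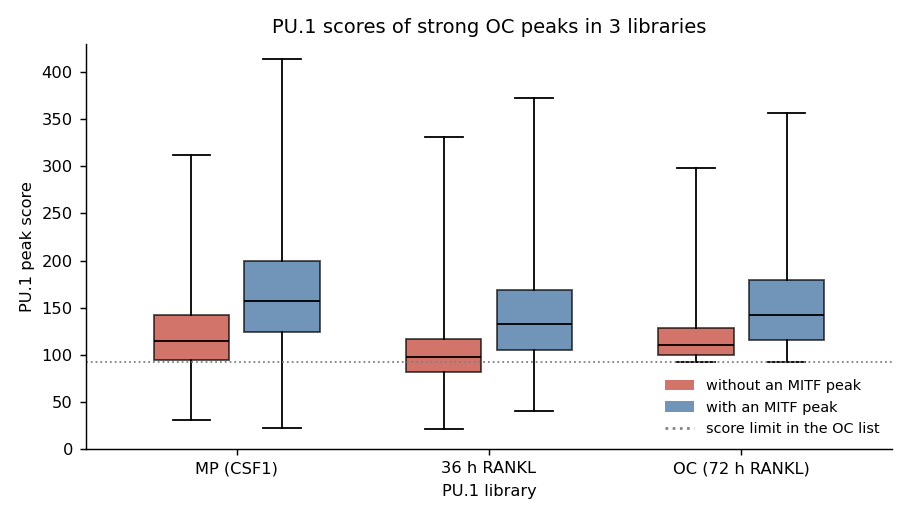
PU.1 peak scores of the strong OC peaks in the MP, 36 h and OC libraries. Boxes give median and quartiles and whiskers the lowest and highest peak, red for sites without and blue for sites with an MITF peak, and the dotted line is the score limit that was applied to the OC scores only. The medians without an MITF peak, 114.3, 97.6 and 110.1, are under the medians with one, 156.9, 133.0 and 142.4.

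The highest site lay in an intron of Slc2a1, which encodes the glucose transporter GLUT1, at chr4:118799938-118800088, with scores of 310.5 in MPs, 331.1 at 36 h and 298.1 in OCs. The nearest MITF center was 54208 bp away. From here on, 3 scores of a site are PU.1 scores in the order MPs, 36 h and OCs. The next was an intron site of Fkbp1b, a gene for an immunophilin that binds calcium release channels, with 279.8, 239.5 and 246.7. At chr16:84967404-84967554, a site assigned to Atp5j lay in an intron of App, the amyloid precursor protein gene, with 259.3, 193.6 and 243.8. All 3 sites were high in each PU.1 library. Tiam1, which encodes an activator of the GTPase Rac, had an intron site with 249.0, 204.0 and 223.2. Vps41, a subunit of the complex that tethers vesicles to lysosomes, had one with 281.5, 205.5 and 218.8, 803613 bp from the nearest MITF center. The sites assigned to Tcte2, Emb, Plekho2 and Gm6994 completed the 10 named with OC scores of 218.8 to 239.4, where a site assigned to Atp2b1 tied with the last at 218.8, and none of the 9 named sites that had a 36 h peak was called changed from MPs to 36 h.

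No difference in position relative to genes passed the adjusted threshold. The center lay within 1 kb of a transcription start site (TSS) at 12.8% of the sites without and 11.4% of those with an MITF peak, a difference of 1.36 percentage points (95% Newcombe interval -0.136 to 2.91), and the odds ratio within 5 strata of PU.1 OC score was 1.08 (0.927 to 1.27, chi-square adjusted p = 0.534). The share at 10 to 100 kb was 43.8% against 46.2% (odds ratio 0.917, 0.827 to 1.01, chi-square adjusted p = 0.247). Median distances were 9600.5 and 10568 bp. Introns held 51.7% and 52.4% of the sites, intergenic sequence 42.2% and 42.3% and exons 6.02% and 5.29%. The farthest site from a TSS, assigned to Nmbr, was 773047 bp away, and sites of Ncf4 and Tyrobp lay 3 and 31 bp from one.

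Motifs were counted within 100 bp of the center, and the ETS-IRF element was the one that passed the adjusted threshold. GGAANNGAA, the joint site of PU.1 with IRF4 or IRF8, was present at 16.6% of the sites without (458 of 2756) and 21.3% of the sites with an MITF peak (1091 of 5126), and at 15.2% of all PU.1 OC peaks. The odds ratio was 0.748 (0.655 to 0.854, chi-square adjusted p = 0.000142). In order of 0, 1, 2 and 3 MITF lists with a peak, the share was 16.6%, 19.2%, 21.0% and 23.7%. The related interferon response element GAAANNGAA, which overlaps the ETS-IRF element in some sequences, was at 9.87% and 11.04% (all PU.1 OC peaks 9.97%, odds ratio 0.813, 0.688 to 0.961, chi-square adjusted p = 0.0670) and did not pass.

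The E-box was not scarcer at sites without an MITF peak. CACGTG or CATGTG stood at 19.4% of the sites without and 17.7% of those with an MITF peak, and at 17.2% of all PU.1 OC peaks (odds ratio 1.18, 1.03 to 1.34, chi-square adjusted p = 0.0670). Sites with an MITF peak in all 3 lists held it in 14.5%, and against them the odds ratio was 1.69 (1.36 to 2.10, chi-square adjusted p = 1.47e-05), a comparison added after the data were seen. With windows of 50 bp each side the odds ratio was 1.29 (chi-square adjusted p = 0.0184), without sites within 1 kb of a TSS 1.205 (chi-square adjusted p = 0.0400), and with the MITF OC list alone 1.43 (chi-square adjusted p = 5.88e-07). The E-box share did not pass with MITF centers within 500 bp counted as MITF or a score of at least 120 (chi-square adjusted p = 0.105 and 0.194). Nor did it pass without score strata, with 10 strata or without peaks overlapping an IgG peak (chi-square adjusted p = 0.143, 0.066 and 0.066). The palindromic form CACGTG, which is part of the E-box count, was at 3.67% and 3.28% (all PU.1 OC peaks 3.29%). The median distance of the E-box from the PU.1 center was 45.5 bp at sites without and 48.5 bp at sites with an MITF peak, while the PU.1 motif GAGGAAGT was at 7.5 and 9.5 bp.

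**Figure D3:**
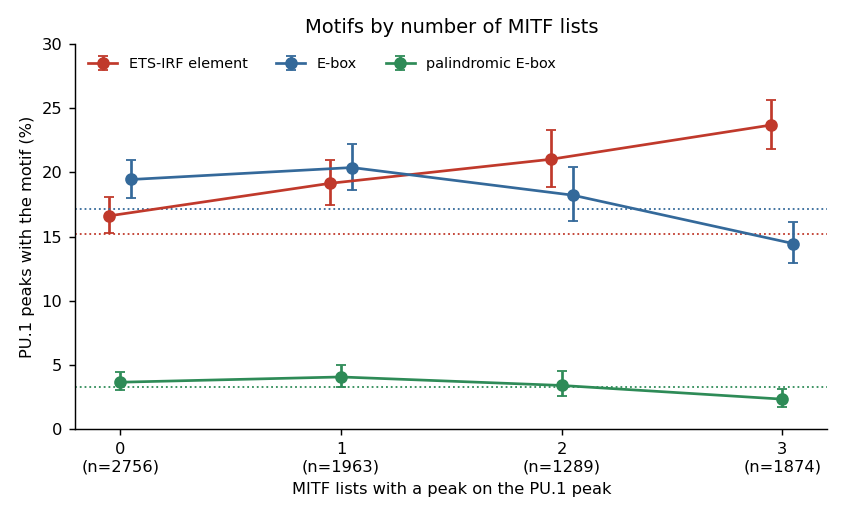
Percent of strong PU.1 peaks with an ETS-IRF element, an E-box or a palindromic E-box within 100 bp of the center, by the number of MITF lists with a peak there. Points are shares with 95% Wilson intervals, and dotted lines are the shares of all PU.1 OC peaks. The ETS-IRF share went from 16.6% with no list to 23.7% with all 3, and the E-box share from 19.4% to 14.5%. These shares are not adjusted for PU.1 OC score.

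The motifs of PU.1 itself went with the score. GAGGAAGT was at 33.3% of the sites without and 36.2% of those with an MITF peak and at 22.8% of all PU.1 OC peaks, but within score strata the odds ratio was 1.12 (1.01 to 1.25, chi-square adjusted p = 0.115), so that the direction turned once peaks of like score were compared. Its core GAGGAA, which the longer form contains, was at 65.8% and 71.3% (all PU.1 OC peaks 58.7%, odds ratio 0.890, chi-square adjusted p = 0.115). In the highest score stratum GAGGAAGT was at 53.6% of the 84 sites without and 45.5% of the 1457 sites with an MITF peak. The AP-1 motif TGANTCA was at 13.0% and 12.4% (all PU.1 OC peaks 10.5%, odds ratio 1.02, chi-square adjusted p = 0.933). With the MITF OC list alone its odds ratio was 1.50 (chi-square adjusted p = 2.23e-06), and that of GAGGAAGT 1.23 (chi-square adjusted p = 0.000696).

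Other myeloid motifs gave odds ratios close to 1. The RUNX motif TGTGGT was at 20.6% and 19.4% of the sites without and with an MITF peak (all PU.1 OC peaks 16.8%), and the C/EBP motif TTGCNNAA or TTGCNNCA at 22.5% and 21.5% (19.2%). The KLF motif GGGNGTG was at 12.6% and 12.3% (12.9%) and the GC box CCGCCC at 4.72% and 3.61% (6.46%). Their odds ratios were 1.02 to 1.12, and none passed. Median GC content of the windows was 48.8% and 47.8%.

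**Figure D4:**
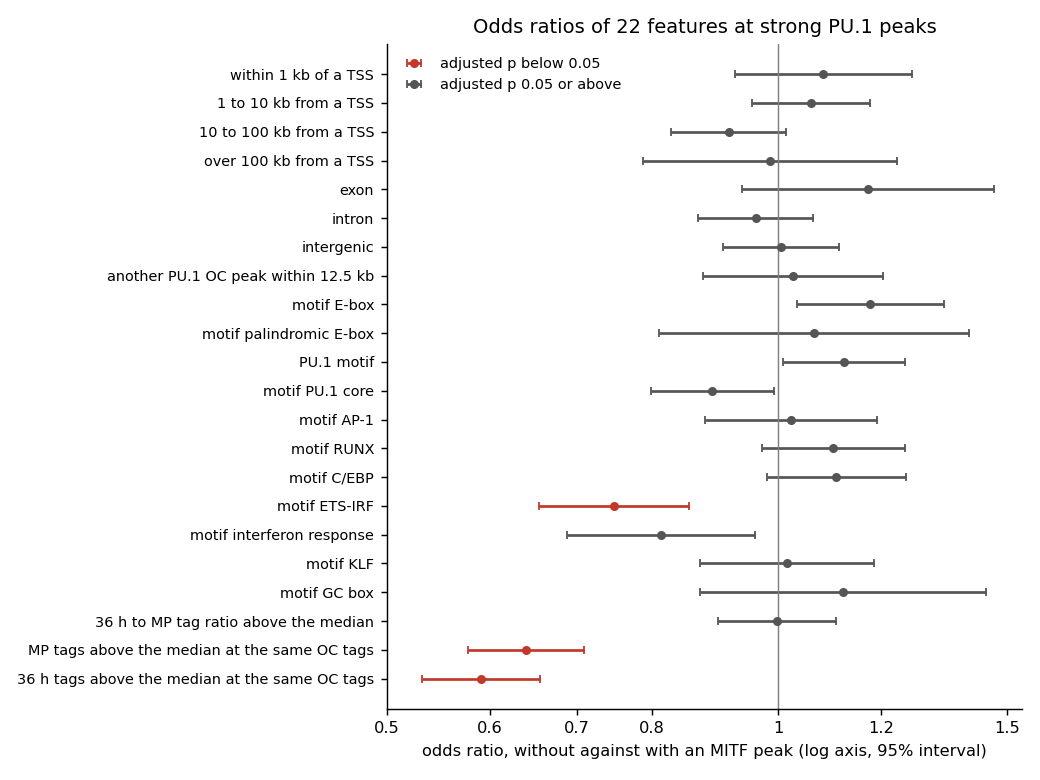
Mantel-Haenszel odds ratios, with 95% intervals on a log axis, of 22 features at strong PU.1 peaks without against with an MITF peak, within strata of PU.1 OC score or, for the last 2, of OC tags. Red marks the 3 features with an adjusted p below 0.05, which are the ETS-IRF element (0.748) and the MP (0.640) and 36 h (0.591) tags at the same OC tags. The last 2 were matched on the OC tags that the rule used. They are descriptions and cannot tell a change with time from a difference in overall PU.1 strength.

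From MPs to 36 h of RANKL few of these sites changed. Tags of overlapping peaks were compared by an exact binomial test against the median ratio of 51559 pairs, and a change was called at a Benjamini-Hochberg adjusted p below 0.05 and at least 2-fold. Of the 2711 sites with both peaks, 17 rose (0.627%, 95% Wilson interval 0.392 to 1.002), where 0.411% of all pairs rose, and 44 fell (1.62%, 1.21 to 2.17), where 0.72% of all pairs fell. Among all pairs with the middle range of the sites' tags (113 to 158 in both libraries together) 0.401% rose and 2.09% fell, so these counts are near the background of pairs with like depth. With the ratio of the library sizes (1.15) in place of the median ratio (1.05), 11 sites rose and 74 fell. The sites with an MITF peak, with more tags, had 13 rises (0.255%, 0.149 to 0.437) and 38 falls (0.747%, 0.544 to 1.02) in 5090. Both shares were below those of the sites without one, and this difference was not tested. The ratio of 36 h to MP tags was above the median of all pairs at 40.3% of the sites without and 39.2% of those with an MITF peak (odds ratio 0.998, 0.899 to 1.11, chi-square adjusted p = 0.9751). Here too the MITF OC list alone gave another call, with an odds ratio of 0.822 (chi-square adjusted p = 0.000783).

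**Figure D5:**
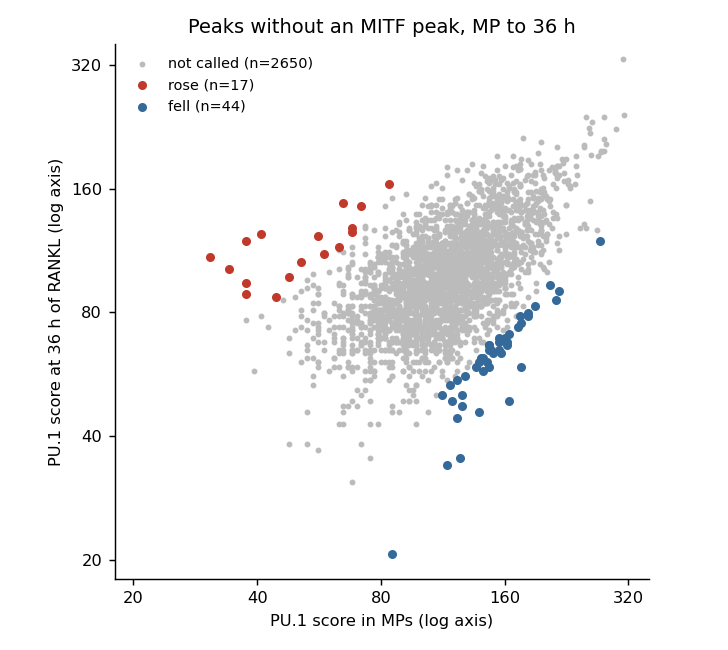
PU.1 scores at 36 h of RANKL against MPs, both on log axes, for the 2711 sites without an MITF peak that had a PU.1 peak in both libraries. Each point is a site, red for the 17 that rose and blue for the 44 that fell. The risers started from a median MP score of 51.2 and the fallers from 147.6.

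The sites that rose began low in MPs. The largest rise was near Wdr27, from 30.7 in MPs to 109.4 at 36 h and 123.3 in OCs (log2 change 1.97, exact binomial test, adjusted p = 3.44e-05). Near Slc5a3, a sodium and myo-inositol cotransporter gene, scores were 37.5, 119.7 and 107.2 (log2 change 1.81), and in an intron of Bcas1 40.9, 124.2 and 111.6 (log2 change 1.74). Sites at Cdca8 and Fah followed with log2 changes of 1.72 and 1.47. The next 4 genes were picked from the other risers after their values were seen. Csf2rb, the shared receptor chain for GM-CSF and interleukin 3, had 68.2, 125.6 and 124.8. Birc3, an inhibitor of apoptosis downstream of TNF receptors, had a site 21 bp from a TSS with 68.2, 128.6 and 101.3. Tnfrsf14 and Relt, both TNF receptor family genes, had 47.8, 97.6 and 99.9 and 44.4, 87.2 and 96.9. All 17 sites that rose had OC scores above their MP scores, as a description, since the OC score chose the sites.

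The sites that fell had a median MP score of 147.6, against 114.3 at all selected sites with an MP peak. Single sites, such as the first below, were lower. These levels, like those of the sites that rose, are descriptions, since the calls use the MP tags. The largest fall was near Scamp2, a vesicle membrane protein gene, from 85.3 in MPs to 20.7 at 36 h, with 98.4 in OCs (log2 change -1.90, exact binomial test, adjusted p = 0.00126). Near Gm13498 scores were 124.5 in MPs and 35.5 at 36 h (log2 change -1.67). In an intron of Map3k7, which encodes the kinase TAK1 of RANK and TNF signaling, they were 116.0, 34.0 and 98.4 (log2 change -1.63). Atp10a and Tmem144 followed with log2 changes of -1.61 and -1.45. Of the other fallers, again named after their values were seen, Samhd1, a dNTP hydrolase gene, had a site 2 bp from a TSS with 216.6, 90.2 and 141.0. The site near Irf4, a partner of PU.1 at composite elements, had 150.1, 63.6 and 102.8, and the site near Itga4, the integrin alpha 4 gene, had 160.3, 69.5 and 96.9. Nrp1, Plxna2 and Plxnc1, receptors or coreceptors of semaphorins, each had 1 falling site, with log2 changes of -1.11, -1.33 and -1.002. Median scores of the 44 sites were 147.6 in MPs, 63.6 at 36 h and 108.7 in OCs, so the OC median was above that at 36 h. In OCs 40 of the 44 sites were below their MP score and 4 were above it. The OC values are descriptions, since the OC score chose the sites.

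Genes were assigned from the nearest RefSeq transcript of the deposited list, and nearness does not show that a site acts on the gene. The 2756 sites were nearest to 2179 genes, 14.0% of the 15559 genes nearest to any PU.1 OC peak. Of these, 1067 (49.0%) also had a strong peak with MITF, where 22.1% of all 15559 genes did, and 1112 had none. For 926 of the 1112, no peak of any MITF list named the gene. That share was not computed over all genes, so the 926 genes have no background to be set against. At least 2 sites were found at 439 genes. Gm826 had 6 sites beside 5 strong peaks with MITF, and Btg1, Hlx, Klf6, Lpp, Pid1 and Rap2b had 5 each beside 3, 7, 5, 7, 7 and 2. These genes had many PU.1 OC peaks of any score, from 39 at Gm826, Hlx and Rap2b to 85 at Lpp. Btg1 is an antiproliferative gene, Hlx a homeobox gene and Klf6 a zinc finger factor of activated macrophages.

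Among 60 transcription factors of the myeloid and OC lineages, all with a PU.1 OC peak, 32 had a selected site and 42 a strong peak with MITF. The highest was an intron site of Ets1, an ETS factor, with 187.6 in MPs, 141.9 at 36 h and 163.0 in OCs. The Fli1 intron site printed above had 180.8, 127.1 and 157.1, and Bach2, a repressor at AP-1 like sites, had an intron site with 165.5, 124.2 and 155.7. Near Rbpj, the nuclear effector of Notch signaling, scores were 151.8, 125.6 and 151.2, and an MITF center stood 262 bp away. Ets1, Egr1 and Irf4 had selected sites and no strong peak with MITF, and Irf4 had 4 of them. No peak of any MITF list named these 3 genes.

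Of 43 genes of OC function with a PU.1 OC peak, 14 had a selected site and 25 a strong peak with MITF. Itgb3, the beta 3 chain of the integrin with which OCs attach to bone, had an intron site at chr11:104508930-104509080 with 133.1, 127.1 and 148.3 and the nearest MITF center 222438 bp away. Pstpip1, an adaptor of the actin cytoskeleton, had the highest of the list with 199.6, 156.7 and 168.9. Dcstamp, needed for fusion of precursors, was the gene assigned to a site in an intron of its neighbor Dpys with 191.0, 133.0 and 138.0. Ptk2b, the kinase PYK2 of the sealing zone, had 134.8, 116.8 and 121.9, and Tyrobp, the adaptor DAP12, had 80.2, 107.9 and 111.6 at its TSS. Itgb3, Siglec15, Snx10 and Tfrc had selected sites and no strong peak with MITF, and for Tfrc alone of these an MITF peak was listed elsewhere. Of the OC markers looked up, Ctsk, Acp5, Calcr and Oscar had no strong PU.1 peak, with highest OC scores of 79.3, 82.2, 41.1 and 27.9, and Mmp9 had 1 strong peak, with MITF, at 111.6.

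Macrophage and innate immune genes had the most selected sites after the transcription factors. Of 74 such genes with a PU.1 OC peak, 38 had a selected site and 56 a strong peak with MITF. Ncf4, a subunit of the phagocyte NADPH oxidase, had a site at its TSS with 177.4, 212.9 and 199.7, and the oxidase subunit gene Cyba had an intron site with 162.1, 156.7 and 152.7, its only PU.1 OC peak. Lyz1, a lysozyme gene, had an exon site with 136.5, 131.6 and 155.7, and Tnfaip3, the NF-kB inhibitor A20, had one at its TSS with 162.1, 149.3 and 146.8. Fcgr2b, the inhibitory receptor for IgG, had 122.8, 72.4 and 145.4, a difference from MPs to 36 h that did not pass (exact binomial test, adjusted p = 0.302). The 9 genes with selected sites and no strong peak with MITF were Ccl4, Ccr2, Cd14, Clec4e, Csf2rb, Cyba, Slc11a1, Tlr1 and Tlr8. For Ccl4, Ccr2, Cd14 and Csf2rb of these, an MITF peak was listed elsewhere.

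Lysosome and autophagy genes, a group in which MITF and its relatives are known to act, had 15 of 48 with a selected site and 27 with a strong peak with MITF. Rragc, a Rag GTPase of nutrient signaling at the lysosome, had an intron site with 216.6, 181.8 and 195.3. It had no strong peak with MITF, but an MITF peak was listed elsewhere for the gene. The lysosomal hydrolase gene Gusb had an intron site with 174.0, 162.6 and 157.1, and the windows of the Rragc and Gusb sites held 1 E-box each. Tpcn2, a lysosomal ion channel gene, was assigned a site 95954 bp from a TSS with 209.8, 140.4 and 154.2. Of 21 lymphoid genes with a PU.1 OC peak, 5 had a selected site, of which Cd4 (136.5, 131.6 and 136.6) and Cd72 (110.9, 102.0 and 129.2) were the highest. At the lymphoid markers Cd79a, Pax5, Cd3e and Lck PU.1 OC scores were at most 35.2, and at the macrophage markers Csf1r, Itgam, Cd14, Cd68, Lyz2, Adgre1 and Fcgr1 the highest scores ran from 79.3 at Lyz2 and 96.9 at Cd14 to 186.5 at Csf1r. These are scores of any PU.1 OC peak. Csf1r and Cd68 had strong peaks only with MITF, and Lyz2 had no strong peak. Cd14 had 2 selected sites, and Itgam, Adgre1 and Fcgr1 had 1 each. As a share of the listed genes with a PU.1 OC peak, 53.3%, 32.6%, 51.4%, 31.2% and 23.8% of the transcription factor, OC function, macrophage, lysosome and lymphoid lists had a selected site, and 70%, 58.1%, 75.7%, 56.2% and 28.6% a strong peak with MITF. Over all 15559 genes nearest to a PU.1 OC peak these shares were 14.0% and 22.1%, so more genes had a strong peak with MITF there as well.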

How the data were processed

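PU.1, MITF and IgG ChIP-Seq peak lists, 1 per library, were used as deposited. The submitters' notes name CASAVA 1.8, Bowtie2, HOMER and mm9, and peak calling settings are not given in the sources used here. The authors' score is the tag count of a peak scaled by HOMER, and dividing by the value of 1 tag gave whole tags to within 0.0499 score units in the PU.1 and 0.0498 in the MITF lists. Under the assumption that HOMER scaled to 10000000 tags, the PU.1 libraries held 5860000 to 6810000 tags and the MITF libraries 8760000 to 10270000. No reads were analysed and no peak was called again.

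Peaks were matched by an overlap of 1 bp. TSS distances and classes came from GENCODE vM1 on NCBIM37, which is mm9. RefSeq symbols were matched for 2538 of the 2756 sites, and the others took the nearest protein-coding GENCODE gene. Motifs were counted on both strands. Shares were compared by Mantel-Haenszel odds ratios and the two-sided Cochran-Mantel-Haenszel chi-square test in 5 strata of PU.1 OC score, with Benjamini-Hochberg adjustment over 22 shares, and intervals of shares are 95% Wilson. MP and 36 h tags were compared by an exact two-sided binomial test given their sum. The 36 h PU.1 peaks are up to 190 bp wide and those of MPs and OCs up to 150 bp, which the median ratio of all pairs takes up on average. On simulated pairs of MP and 36 h tags 191 of 200 3-fold changes were recovered and 2 of 51552 pairs were falsely called. The changes were planted only in pairs of high tag number, and the counts had Poisson noise only. Recovery in weaker pairs or of 2-fold changes, and noise between libraries, were not tested.

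Sites named are the 10 highest, the 5 largest rises and falls, sites without an MP or 36 h peak, the 5 highest of each gene list, genes with most sites, the farthest from a TSS, those at the limit and the highest with MITF. One result that the rule names is not reported here. Sites named outside this rule are said to be, or are examples from counts. The sites and gene lists were chosen with earlier results of these data known. The comparison of neighboring peaks, the 2 shares at equal OC tags and the motifs of the MITF lists were added after the data were seen. Alternatives changed the MITF definition, score limit, strata, windows, annotation and pairing. Python 3.11.15, numpy 2.4.6, scipy 1.17.1, pandas 2.3.3 and matplotlib 3.10.9 were used.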

Additional observations from a re-analysis of the deposited data

How the results depend on the processing

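Of 88 values under alternative settings 67 kept their direction and side of the threshold, or stayed within 1.5 times for counts. The MITF OC list alone in place of all 3 lists gave 4630 sites, and odds ratios of 1.43 for the E-box, 1.50 for AP-1, 1.23 for the PU.1 motif, 0.822 for the 36 h to MP ratio and 0.928 for MP tags at equal OC tags, of which the first 4 passed the adjusted threshold and the last no longer did. A score of at least 120 left 962 sites, with 5 rises and 14 falls, and turned the odds ratio within 1 kb of a TSS to 0.934. Without score strata the PU.1 motif turned to 0.882 and the 36 h to MP ratio to 1.05. The latter was 1.001 with 10 strata and 1.01 with MITF centers within 500 bp counted as MITF. The E-box passed with 50 bp windows (1.29), with sites within 1 kb of a TSS left out (1.205) and, added after seeing the data, against peaks in all 3 MITF lists (1.69), where AP-1 also passed (1.45). Apart from these and the MITF OC list alone, the E-box did not pass under any alternative run for it. Library sizes in place of the median ratio gave 11 rises and 74 falls, and no fold limit gave 83 falls. The cause of these changes was not tested, except that fewer or more sites enter under another score limit, MITF definition or fold limit. The ETS-IRF share kept its direction and call under all alternatives run for it, which were chosen after its value was seen, with odds ratios of 0.634 to 0.799. The lists' lowest peaks of 8 to 10 tags limit what can be called without MITF. No paired analysis was possible because each condition has 1 library.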

Other observations

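The share of strong PU.1 peaks without an MITF peak was 30.7% to 37.9% on 19 of the 20 chromosomes and 44.2% on chromosome 18 (95% Wilson interval 37.6 to 51.0), with no test. MITF peaks that overlapped no PU.1 peak numbered 80 in MPs, 166 at 36 h and 268 in OCs, and an E-box was in 17.5%, 18.1% and 20.5% of them (95% Wilson intervals 10.7 to 27.3, 13.0 to 24.6 and 16.1 to 25.8). The palindromic E-box was in 2.50%, 2.41% and 4.10%, against 3.29% of all PU.1 OC peaks. The neutrophil gene S100a8 had 1 selected site with an OC score of 96.9, while at Elane, Mpo and Ly6g the highest PU.1 OC scores were 14.7 to 30.8.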
